A study of Mus musculus with 9 samples.

Results

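The muscle of a tumour-bearing mouse given PBS was compared with muscle of wild type mice given PBS, by RNA sequencing of total RNA. The comparison uses 3 of the 9 libraries of the study: 1 labelled tumour PBS and 2 labelled wild type PBS, called library 1 and library 2 after the numbers in their labels. A set letter in the table names places the tumour library and library 1 in set B and library 2 in set C. The remaining libraries are tumour MDC muscle (set B), wild type muscle given DKK1 and beta-arrestin knockout muscle given PBS or DKK1 (set C), and tumour PBS and wild type PBS kidney (set A). The labels do not say which tumour, which muscle, which mouse strain, which age or which sex was used, and they do not say whether libraries 1 and 2 came from separate animals.

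With 1 tumour library, the size of each change is reported and no test result is read from it. Total counts were 32607835 in the tumour library, 27147790 in library 1 and 21358854 in library 2. Levels are CPM, the counts scaled to a common library size, after TMM scaling, a correction for library composition, and 3 counts, the limit that a count of 0 allows, are 0.0882, 0.141 and 0.131 CPM in that order. Intervals of ratios are exact conditional binomial 95% intervals and cover counting error only. The 12 skeletal muscle markers on a fixed list all had 100 or more counts, with a summed level of 151520 CPM in tumour muscle against 254769 and 113794 CPM in libraries 1 and 2.

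The series title places the samples in work on cancer cachexia, the wasting of muscle and fat that accompanies many tumours. In cachexia, cytokines such as those of the IL-6 family reach muscle through the blood, act through receptors that share the gp130 chain, and activate JAK kinases and STAT transcription factors, whose targets include their own inhibitors of the SOCS family. Wasting muscle in many models also has higher levels of the ubiquitin ligases Fbxo32 and Trim63, which mark muscle proteins for the proteasome. Neutrophils, which leave the bone marrow in larger numbers in many tumour-bearing mice, enter tissue across venules by binding P-selectin and ICAM-1 on the vessel wall.

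Of 10960 genes tested (100 or more counts in the higher library of each pair), 146 were at least 2-fold higher in tumour muscle than in library 1 and in library 2, which is 1.33% of those tested, and 46 were at least 2-fold lower than in both, 0.42% of those tested. These shares are the background for the counts of list members given below. For such a gene the smaller of its log2 changes against the wild type libraries is called its held change. Against library 1 alone 956 genes were higher (8.72%) and 204 lower (1.86%). Scaling by total counts alone, which moves the median log2 change against library 1 from -0.02 to 0.39, gave 189 genes higher and 27 lower against both. The 20 genes with the largest held change among those higher were, in order, Cxcl13, Amy2a5, Cxcr2, Amy2a2, Retnlg, Pglyrp1, Chil1, Ltf, Scgb3a1, Asprv1, Camp, Ifitm6, Chrna9, S100a8, S100a9, Mrgpra2b, Ngp, Cd177, Mmp8 and Slfn4. Among those lower they were Rmrp, Rpph1, Cxcl9, Actc1, Lars2, Atcay, Rn45s, Neto2, Cyp26b1, Fosb, Kcnj15, Amd1, Amd2, Cbr2, Dusp18, Kif13b, Htra4, Nrep, Smox and Spp1.

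The wild type libraries differed from each other by 2-fold or more for 2569 of the genes tested, and for 2090 of these the tumour library lay between them. edgeR's quasi-likelihood test over all 7 muscle libraries, whose 1 residual degree of freedom comes from that pair, called 0 of 15482 genes in this comparison, with 165 genes at an unadjusted p under 0.05. DESeq2 called 8 higher and 5 lower. How many of the 146 and 46 genes differ by no more than the spread between mice cannot be told from 1 tumour library. Of the 146 genes, 116 were above every one of the 6 other muscle libraries, and of the 46 genes 23 were below every one. Being chosen against libraries 1 and 2 already puts them past 2 of those 6, so these counts describe the genes and are no independent measure. Over all genes tested, which were not chosen in that way, the tumour library was the highest of the 7 for 9.33% and the lowest for 9.07%.

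**Figure D1:**
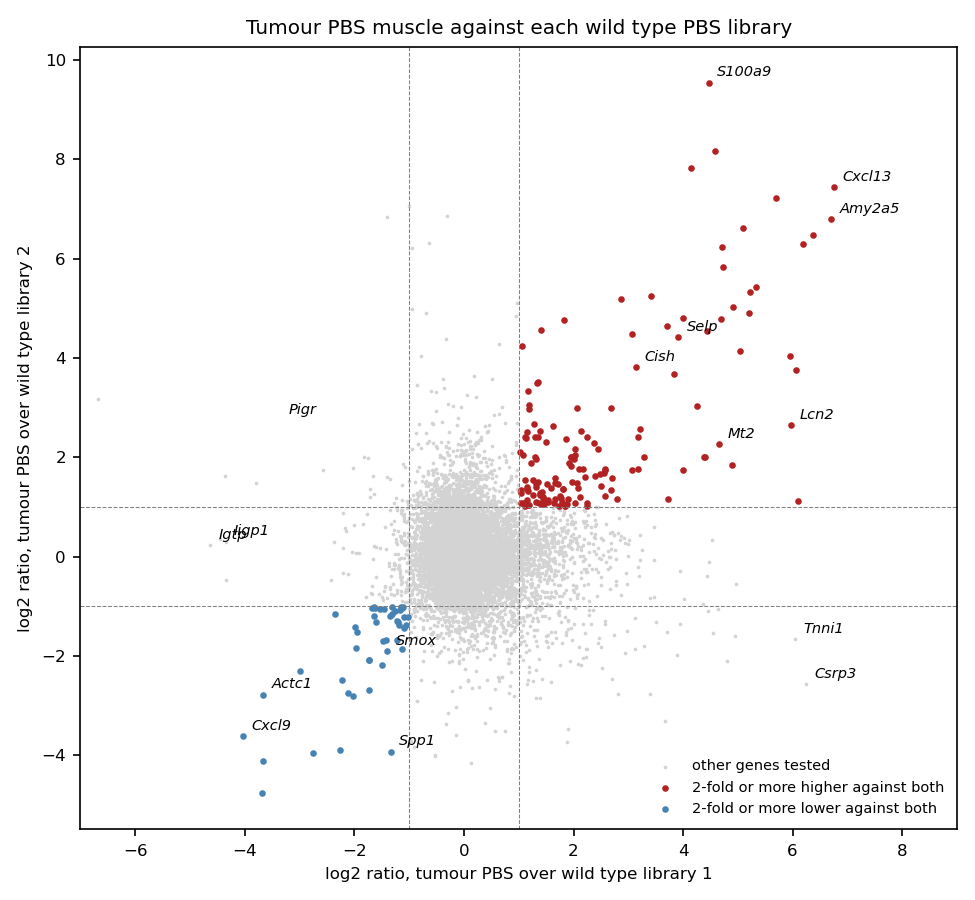
Each point is 1 of the 10960 genes tested, placed by its log2 ratio of tumour PBS over wild type library 1 (horizontal) and over library 2 (vertical), with dashed lines at 2-fold. The 146 red and 46 blue genes differed by 2-fold or more in 1 direction against both, while Csrp3 and Tnni1 at the right and Igtp and Iigp1 at the left differed from library 1 without holding against library 2.

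Neutrophil genes were 11 of the 20 genes with the largest held change among those higher. Of the 16 neutrophil genes measured, 15 were measured only because the tumour library was high. The list was also chosen with earlier results of these data known, so the count of 11 is a description and supports nothing further. S100a9, a calcium-binding protein that is among the most abundant in neutrophil cytoplasm, had 5561 counts in tumour muscle against 157 in library 1 and 5 in library 2, or 164 CPM against 7.36 and 0.218 CPM. Its partner S100a8, which lies beside it on chromosome 3 (90669071 to 90670034, with S100a9 at 90692630 to 90695721), was at 76.0 CPM against 3.19 and 0.262 CPM. The wild type libraries themselves were far apart for both genes, with library 1 the higher, so the ratio for S100a9 was 22.2 (19.0 to 26.2) against library 1 and 749.5 (321 to 2309) against library 2.

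The granule genes were also highest in tumour muscle, but the order of libraries 1 and 2 differed among them. Ngp, the neutrophilic granule protein, was at 29.9 CPM against 1.69 CPM in library 1 and 0 counts in library 2, which is at least 228-fold above the 3-count limit of library 2. The iron-binding granule protein gene Ltf was at 12.9 CPM against 0.375 CPM and 0 counts, and the antimicrobial peptide gene Camp at 7.44 CPM against 0.281 CPM and 0 counts. Library 2 was the higher wild type library for the collagenase gene Mmp8, at 8.68 CPM against 0 counts and 0.524 CPM, and for the gelatinase gene Mmp9, at 8.41 CPM against 0.281 and 2.36 CPM. Among surface receptors, Cxcr2, which binds the chemokines that draw neutrophils, had 396 counts against 2 and 0, and Csf3r, the G-CSF receptor, was at 14.3 CPM against 0.891 and 4.23 CPM.

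Of 27 neutrophil genes on the list, 26 were in the tables and 16 had 100 or more counts in tumour muscle. Of those 16, 15 had fewer than 100 counts in both wild type libraries and were measured only because the tumour library was high, so their number is a description and supports nothing further. The 10 others had from 0 counts (Stfa1) to 2.29 CPM (Clec4d and Clec4e) in tumour muscle. Granule genes of bone marrow precursors were under the 100-count minimum but above the 3-count limit, with 56 counts of Mpo (1.65 CPM) and 22 of Elane (0.647 CPM) against 0 counts in both wild type libraries. The 8 of the 9 genes on that list with 10 or more counts had a median log2 change of 1.68 and 1.78, although the 9 together summed to 7.26 CPM against 2.58 and 8.12 CPM. Macrophage and monocyte markers did not share the pattern, and their change depended on the reference. Of 24 measured, 1 was higher against both (Ly6c2) and 1 lower (Spp1). Against library 1, 21 were 2-fold or more higher and 1 lower, while against library 2, 1 was higher and 9 lower. The tumour library lay between the wild type libraries for 16, such as Lyz2 at 142 CPM against 38.4 and 345 CPM. None of 18 T and NK cell genes reached 100 counts, and they summed to 2.74 CPM against 2.11 and 5.80 CPM. In bulk muscle, more cells of a type and more RNA per cell cannot be told apart.

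Of the genes by which vessels hold leukocytes, Selp, Icam1 and Ackr1 were higher against both. Selp, which encodes P-selectin, was at 28.9 CPM against 1.92 and 1.35 CPM, 15.0-fold (11.0 to 21.1) and 21.4-fold (15.0 to 31.6). Icam1, a ligand of leukocyte integrins, was at 22.2 CPM against 4.08 and 4.98 CPM, and Ackr1, a chemokine-binding receptor of venules, at 17.6 CPM against 3.98 and 3.05 CPM. All of these were above the range of the 6 other muscle libraries, whose highest values were 8.0, 11.6 and 11.8 CPM. They were the 3 of 13 measured genes of the endothelial activation list that were higher against both, and 6 of the 13 were measured only because the tumour library reached 100 counts, so that count is a description. Over all 16 genes of the list, each with 10 or more counts, the median log2 change was 0.75 and 0.77 against libraries 1 and 2, where the genes tested at 100 counts had -0.02 and 0.07. Vcam1, another adhesion gene, was at 7.73 CPM against 3.75 and 8.99 CPM, between the references. Sele, the E-selectin gene, had too few counts for the rule at 2.38 CPM against 0.0937 and 0.218 CPM.

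Among 24 general endothelial genes 5 were higher against both: Plvap, Ly6c1, Tmem100, Cldn5 and Sox18. Over all genes tested the share was 1.33%. Plvap, which forms the diaphragms of fenestrated endothelium, was at 68.5 CPM against 15.9 and 20.2 CPM and above every other muscle library. Ly6c1, a surface antigen of capillaries and monocytes, was at 248 CPM against 111 and 99.3 CPM. The other 3 were within the range of the 6 other muscle libraries, with Sox18 at 59.0 CPM and up to 76.8 CPM elsewhere, Tmem100 at 59.9 and up to 137 CPM, and Cldn5 at 31.9 and up to 36.5 CPM. Sox18 did not hold under DESeq2 size factors or total counts. Pecam1, a pan-endothelial adhesion gene, was at 162 CPM against 58.5 and 120 CPM. The list's median was 0.96 against library 1 and 0.36 against library 2.

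Red blood cell genes were higher as well: of 8 measured erythroid genes 5 were higher against both, where 1.33% of all genes tested were. None of the 8 was above all 6 other muscle libraries. The 5 include both Hba-a1 and Hba-a2, so they are not 5 separate measures. The beta-globin gene Hbb-bs, whose counts are the same as those of its copy Hbb-b1, was at 523 CPM against 129 and 117 CPM, and alpha-globin Hba-a1, which shares reads with Hba-a2, at 1278 CPM against 328 and 320 CPM. Alas2, the erythroid enzyme that opens haem synthesis, was at 15.6 CPM against 2.67 and 4.84 CPM. The ratios of the globin genes ran from 3.62 to 5.18, below those of S100a9 and Selp. In tumour MDC muscle globins were higher still, with Hbb-bs at 845 CPM, while S100a9 was lower at 20.2 CPM and Selp at 8.0 CPM. Platelets also store P-selectin, and of 11 platelet genes 2 were measured: Itga2b was higher against both at 2.97 CPM against 0.141 and 0.742 CPM, and Pf4 was at 7.35 CPM against 1.78 and 11.1 CPM. How much blood in the tissue contributed to the neutrophil and Selp values was not tested.

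**Figure D2:**
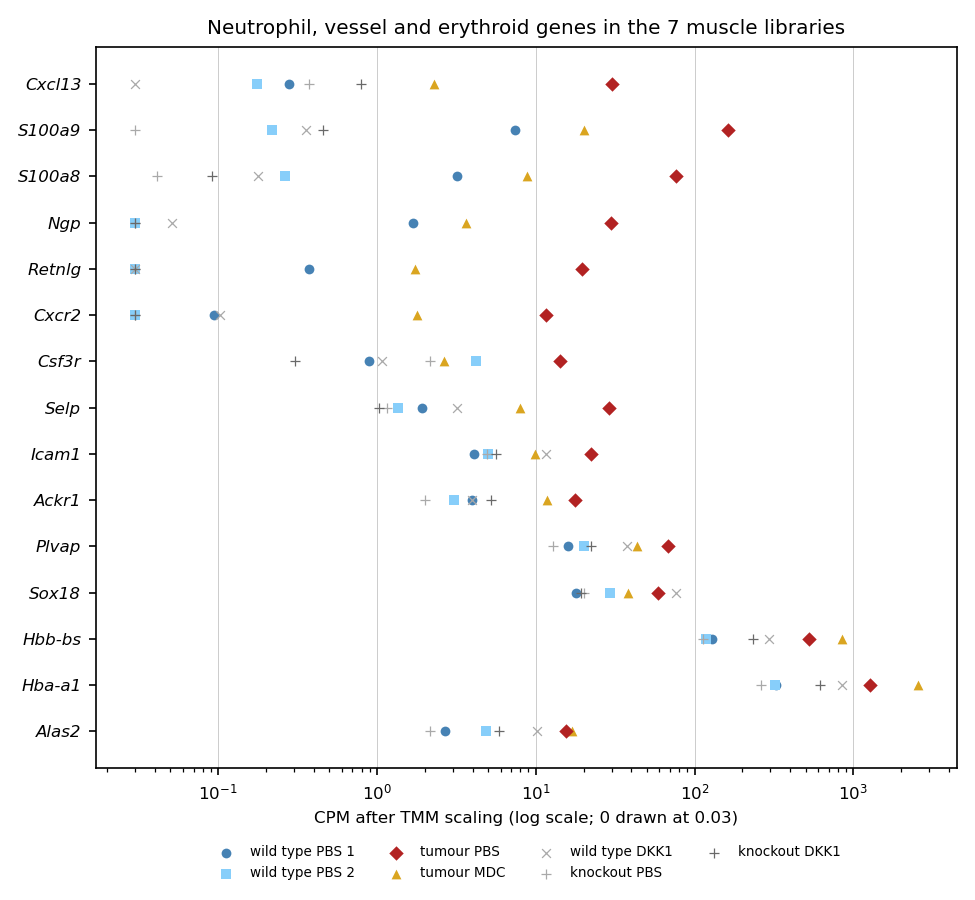
Levels in CPM (log axis, 0 drawn at 0.03) of 15 genes, 1 point for each of the 7 muscle libraries, with no replicate error; knockout stands for the libraries labelled beta-arrestin knockout. Tumour PBS is the highest library for the neutrophil genes and for Selp, Icam1, Ackr1 and Plvap, whereas tumour MDC is highest for the globins and Alas2.

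Genes of the cytokine response formed another group. Cish, a SOCS-family inhibitor that STAT5 induces downstream of growth hormone and cytokine receptors, had 3496 counts against 249 and 167, or 103 CPM against 11.7 and 7.29 CPM, 8.81-fold (7.75 to 10.1) and 14.1-fold (12.1 to 16.6). It was at 8.40 CPM in tumour MDC muscle and between 32.3 and 55.9 CPM in the wild type DKK1 and both beta-arrestin knockout libraries. The tumour PBS library was therefore the highest of the 7, but the muscle libraries without a tumour also spread over 7.29 to 55.9 CPM. Its promoter is shown because both matches to the STAT-type motif lie close together near the start site. It is the RefSeq window of the Cish gene on build GRCm38.p6, chr9:107296409-107296708, plus strand, from 250 bases before to 50 after the start, with matches to TTCNNNGAA (both strands, a palindrome) in capitals.

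Cish promoter: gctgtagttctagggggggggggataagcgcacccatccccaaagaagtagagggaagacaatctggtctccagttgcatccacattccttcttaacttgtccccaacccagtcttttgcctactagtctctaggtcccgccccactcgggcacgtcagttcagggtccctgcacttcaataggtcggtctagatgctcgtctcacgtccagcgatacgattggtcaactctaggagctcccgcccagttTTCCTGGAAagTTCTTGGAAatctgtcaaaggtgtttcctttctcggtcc

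The motif occurred at least once in 8.30% of 32851 mouse promoter windows of this length and at least 2 times in 0.457%. Among the windows of genes higher against both references it occurred in 12 of 135, or 8.89%, so these genes as a group carried it about as often as all promoters. A match describes letters only.

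Socs2, another STAT5-induced inhibitor, was at 31.1 CPM against 10.4 and 12.0 CPM, and Socs3, the inhibitor of gp130 signalling, at 25.5 CPM against 9.47 and 12.1 CPM. For Socs3 the counting interval of the ratio to library 2 reached below 2 (1.83 to 2.41). Socs2 was near the 29.5 CPM of the wild type DKK1 library, whereas Socs3 stood above the 13.9 CPM that was the highest elsewhere. These were the 3 of 11 measured genes of the SOCS and STAT5 list higher against both. Stat5b was at 255 CPM against 257 and 142 CPM and Bcl6, a repressor that STAT5 lowers in other tissues, at 34.1 CPM against 64.6 and 90.7 CPM.

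Of 19 measured acute phase and STAT3 genes 9 were higher against both and none lower, with a median log2 change of 2.1 and 1.14. Of the 19, 3 were measured only through the tumour library, and over all 31 genes of the list, each with 10 or more counts, the medians were 1.15 and 0.46. Lcn2, which binds bacterial siderophores and is made by neutrophils as well as by parenchymal cells, was at 20.6 CPM against 0.328 and 3.27 CPM. Bcl3, a nuclear cofactor of NF-kappa-B, was at 8.56 CPM against 1.64 and 1.75 CPM and Lbp, the carrier of bacterial lipopolysaccharide, at 16.9 CPM against 3.23 and 5.46 CPM. Chil1, a chitinase-like protein gene, had 180 counts against 0 in both, at least 37.7-fold and 40.4-fold higher.

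The transcription factor genes of this list were abundant in all 3 libraries. Cebpd was at 126 CPM against 27.2 and 41.5 CPM, and Junb at 76.2 CPM against 34.4 and 34.7 CPM. Both were above every other muscle library, of which the highest was at 69.3 CPM for Cebpd and 39.5 CPM for Junb. Osmr, the oncostatin M receptor chain, was at 39.9 CPM against 11.7 and 17.6 CPM but at 41.1 CPM in tumour MDC muscle. The other genes higher against both were Socs3 and the plasma copper carrier Cp, at 32.1 CPM against 8.62 and 14.4 CPM. Stat3 itself was at 106 CPM against 67.1 and 77.6 CPM, under 2-fold. Hp, the haemoglobin-binding acute phase gene, was at 65.5 CPM against 6.70 and 230 CPM and Serpina3n, a secreted protease inhibitor, at 18.1 CPM against 4.22 and 64.3 CPM, so neither held against library 2.

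Messages of the cytokines themselves were scarce in the muscle. Il6 was at 0.118 CPM against 0 counts and 0.0436 CPM, Osm at 0.353 CPM against 0 counts in both, and Tnf at 0.647 CPM against 0.516 and 0.0873 CPM, all with too few counts for the rule. Il1b, which neutrophils and monocytes make, was higher against both at 3.91 CPM against 0.469 and 0.175 CPM, and with Osmr it made 2 of 18 measured genes of the cytokine and receptor list. Among 16 measured chemokines and receptors, 5 of them measured only through the tumour library, 4 were higher against both, Cxcl13, Cxcr2, Ackr1 and Ccl8, and Cxcl9 was lower.

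Cxcl13, the chemokine that draws B cells, had the largest held change of all genes (chromosome 5, 95956939 to 95961068). It had 1028 counts in tumour muscle against 6 and 4, or 30.2 CPM against 0.281 and 0.175 CPM, and no other muscle library was above 2.28 CPM. Markers of B cells were scarce: 13 B cell genes, none with 100 counts, summed to 5.24 CPM in tumour muscle against 5.25 and 3.01 CPM. The 10 of them with 10 or more counts had a median log2 change of 0.41 and 0.81. Cxcl9, a chemokine that interferon gamma induces, went the other way at 0.5 CPM against 8.16 and 6.15 CPM, although it was as low in tumour MDC muscle at 0.402 CPM. It was also below both references in beta-arrestin knockout muscle, at 1.77 CPM with PBS and 1.12 CPM with DKK1. Wild type DKK1 muscle was at 7.32 CPM.

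Metallothioneins, small cysteine-rich proteins that bind zinc and copper, were higher. Mt2 was at 134 CPM against 5.30 and 27.9 CPM and its neighbour Mt1 at 164 CPM against 19.7 and 48.5 CPM, and both stood above the 32.4 and 65.9 CPM that were their highest values elsewhere. They were the 2 of 13 measured members of the metallothionein and zinc transport list higher against both. Mtf1, the zinc sensor that activates them, was at 22.9 CPM against 21.2 and 22.2 CPM, the exporter gene Slc30a1 at 23.8 CPM against 16.2 and 22.5 CPM and the importer gene Slc39a14 at 15.3 CPM against 9.14 and 25.7 CPM. The promoters of this pair are shown as the group that moved together on 1 locus, with matches to TGCNCNC, the core of the metal response element, on either strand in capitals. They are RefSeq windows on GRCm38.p6, plus strand, chr8:94178839-94179138 for Mt1 and chr8:94172368-94172667 for Mt2.
Mt1 promoter: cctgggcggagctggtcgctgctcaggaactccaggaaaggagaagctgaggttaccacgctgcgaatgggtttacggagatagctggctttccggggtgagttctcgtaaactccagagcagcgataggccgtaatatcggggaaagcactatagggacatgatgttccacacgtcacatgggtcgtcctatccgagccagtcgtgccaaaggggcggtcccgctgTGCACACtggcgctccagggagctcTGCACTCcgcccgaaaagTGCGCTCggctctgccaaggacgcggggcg
Mt2 promoter: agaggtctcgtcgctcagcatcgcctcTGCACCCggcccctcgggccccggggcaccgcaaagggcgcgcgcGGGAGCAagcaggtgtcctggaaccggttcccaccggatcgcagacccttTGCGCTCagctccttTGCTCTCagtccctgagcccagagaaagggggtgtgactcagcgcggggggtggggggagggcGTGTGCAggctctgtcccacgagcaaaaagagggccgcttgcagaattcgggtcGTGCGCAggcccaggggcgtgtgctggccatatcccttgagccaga

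The Mt1 window holds 3 matches and the Mt2 window 6. The pattern is short and common, with at least 1 match in 51.0% of all windows, at least 3 in 7.10% and at least 6 in 0.225%.

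**Figure D3:**
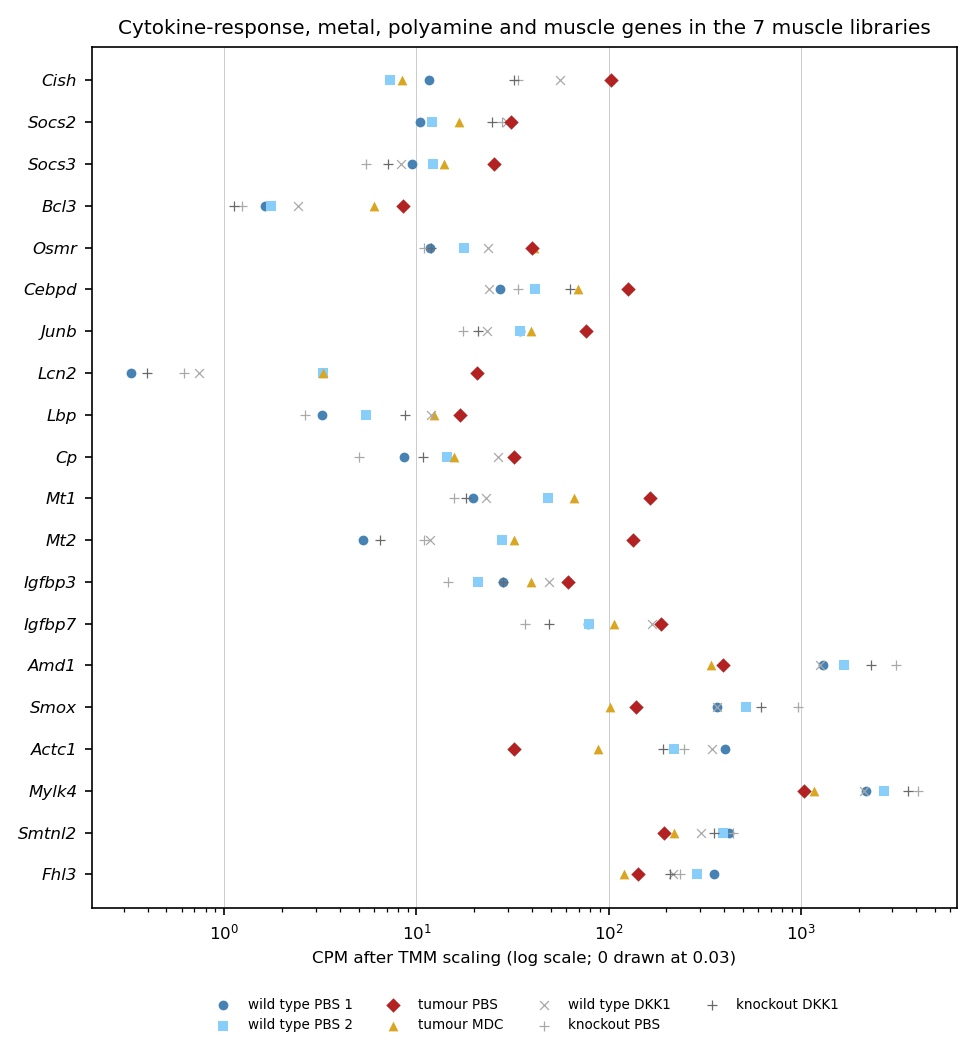
Levels in CPM (log axis) of 20 genes in the 7 muscle libraries, 1 point per library and no replicate error. Cish, Bcl3, Cebpd, Junb, Lcn2, Mt1 and Mt2 are highest in tumour PBS, Actc1, Mylk4 and Smtnl2 are lowest there, and Amd1, Smox and Fhl3 are as low or lower in tumour MDC.

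Amylase genes stood out among the largest changes. Amy2a5 had 497 counts in tumour muscle and 0 in libraries 1 and 2, at least 104-fold and 112-fold higher, and Amy2a2, whose counts are the same as those of its copies Amy2a3 and Amy2a4, had 349 counts against 0 and 0. Both are pancreatic amylases on chromosome 3. No other gene of the 30 acinar genes in the tables reached 100 counts: the trypsinogen gene Prss1 had 0 counts in all 3 libraries, and the carboxypeptidase gene Cpa1 was at 0.0294 CPM and the lipase gene Pnlip at 0.0882 CPM in tumour muscle, against 0 counts in both references. More of the list was detected in tumour muscle, however. Of the 30 genes, 10 had 0 counts there, against 25 in library 1 and 25 in library 2. The tumour library also had the most counts of the 3 libraries, so these zeros are not compared at equal depth. Tumour MDC muscle had 1.79 CPM of Amy2a5, and the wild type DKK1 and beta-arrestin knockout libraries had 0 counts.

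Other genes of the first 20 included Scgb3a1, a secretoglobin of airway epithelium, with 145 counts against 2 and 2, and Chrna9, a subunit of a nicotinic receptor, with 123 counts against 2 and 0. Major urinary protein genes, which have near-identical copies and share reads, were also higher against both, with Mup2 at 148 CPM against 64.9 and 17.9 CPM. In the IGF, insulin and mTOR list 2 of 21 measured members were higher against both: the IGF-binding Igfbp7, at 188 CPM against 78.4 and 78.9 CPM, and Igfbp3, at 61.2 CPM against 28.2 and 21.0 CPM. Igf1 was at 15.2 CPM against 8.39 and 25.1 CPM, between the references.

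Genes of muscle fibres and of polyamine synthesis were among those lower. Actc1, the cardiac form of actin, which adult skeletal muscle also makes at a low level, had 1089 counts against 8655 and 5025, or 32.0 CPM against 406 and 219 CPM, 12.7-fold and 6.85-fold lower. No other muscle library was below the 88.1 CPM of tumour MDC. The skeletal form Acta1 was at 26041 CPM in tumour muscle against 45424 and 29452 CPM, and of the 29 sarcomere genes measured Actc1 was the 1 lower against both, with a list median of -0.30 against either library.

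Amd1, which encodes the decarboxylase that supplies aminopropyl groups for spermidine and spermine, was at 392 CPM against 1305 and 1674 CPM, 3.33-fold and 4.27-fold lower, and its counts cannot be separated from those of the near-identical Amd2. Smox, the spermine oxidase gene, was at 138 CPM against 366 and 521 CPM, a change that did not reach 2-fold against library 1 under scaling by total counts. Both were as low in tumour MDC muscle, at 340 and 102 CPM. In each of the muscle libraries without a tumour they were at 1264 CPM or more and 365 CPM or more. They were the genes behind the 3 of 12 polyamine list members lower against both, Amd1, Amd2 and Smox, and the list median was -0.36 and -0.18. Odc1, the first enzyme of the pathway, was at 36.9 CPM against 45.3 and 326 CPM, so its level depended on the reference, and Srm and Sat1 were at 10.4 and 27.1 CPM against 9.56 and 23.4 CPM in library 1 and 9.82 and 24.7 CPM in library 2.

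Further muscle genes were lower by smaller amounts, and they were picked after their values were seen. Mylk4, a myosin light chain kinase, was at 1046 CPM against 2182 and 2699 CPM, and Mettl21c, a muscle lysine methyltransferase, at 29.8 CPM against 93.7 and 67.9 CPM. Smtnl2, a smoothelin-like protein, was at 195 CPM against 422 and 396 CPM, and Fhl3, a LIM domain protein, at 142 CPM against 352 and 288 CPM. Mylk4 and Smtnl2 were below the lowest of the 6 other libraries (1177 and 219 CPM), while Mettl21c and Fhl3 were lower still in tumour MDC muscle at 23.8 and 121 CPM.

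Non-coding RNAs had the largest held changes among the lower genes. Rmrp, the RNA of RNase MRP, which takes part in ribosomal RNA processing, and Rpph1, the RNA of RNase P, which trims precursor tRNA, had 24 and 16 counts in tumour muscle. Rn45s, the ribosomal RNA precursor, was the seventh, and took 0.545% of all counts against 1.96% in library 1 and 8.29% in library 2. The beta-arrestin knockout PBS library was lower than tumour muscle for Rn45s, at 0.359%. These RNAs therefore held against both references but not against all libraries.

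The ubiquitin ligase genes Fbxo32 and Trim63 did not hold in either direction. Fbxo32 was at 314 CPM against 346 and 216 CPM and Trim63 at 191 CPM against 247 and 119 CPM, each between the wild type libraries. Of 21 measured genes on the list of ubiquitin ligases and FoxO factors, none was higher or lower against both, and the medians were -0.08 and -0.19. The same held for 25 autophagy and lysosome genes (-0.07 and -0.01) and for 31 proteasome subunits (-0.27 and 0.41). On the list of 22 atrophy and FoxO target genes, 3 were higher against both, namely Mt2, Mt1 and Cebpd, and none was lower. Pdk4, the kinase that turns off pyruvate dehydrogenase in fasting, was at 654 CPM against 456 and 384 CPM, and Mstn, the gene of the growth inhibitor myostatin, at 112 CPM against 88.1 and 96.1 CPM, both under 2-fold. The FoxO factor Foxo6, which is not on these lists and was picked after its values were seen, was lower against both, with 125 counts against 237 and 211, or 3.68 CPM against 11.1 and 9.21 CPM. That is 3.02-fold and 2.50-fold lower, and Foxo6 was lower still in tumour MDC muscle at 2.59 CPM. The other FoxO factors named lay between the references, Foxo1 at 38.6 CPM against 17.4 and 54.5 CPM and Foxo3 at 3.68 CPM against 0.422 and 8.60 CPM.

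Genes of the Dkk1 and LRP6 axis named in the title did not pass either. Dkk1, a secreted Wnt antagonist, had 0 counts in all 3 muscle libraries. Its co-receptor gene Lrp6 was at 35.0 CPM against 34.6 and 59.4 CPM, Lrp5 at 17.9 CPM against 6.05 and 32.0 CPM, Kremen1, the partner in LRP6 uptake, at 40.8 CPM against 42.0 and 102 CPM, and Ckap4, another DKK1 receptor, at 13.5 CPM against 8.95 and 21.8 CPM. The Wnt feedback gene Axin2 was at 4.97 CPM against 4.27 and 7.99 CPM. Arrb1 was at 19.9 CPM against 17.3 and 20.3 CPM and Arrb2 at 13.7 CPM against 7.59 and 7.86 CPM. Of 18 receptor and antagonist genes and of 10 Wnt target genes measured, none was higher or lower against both.

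**Figure D4:**
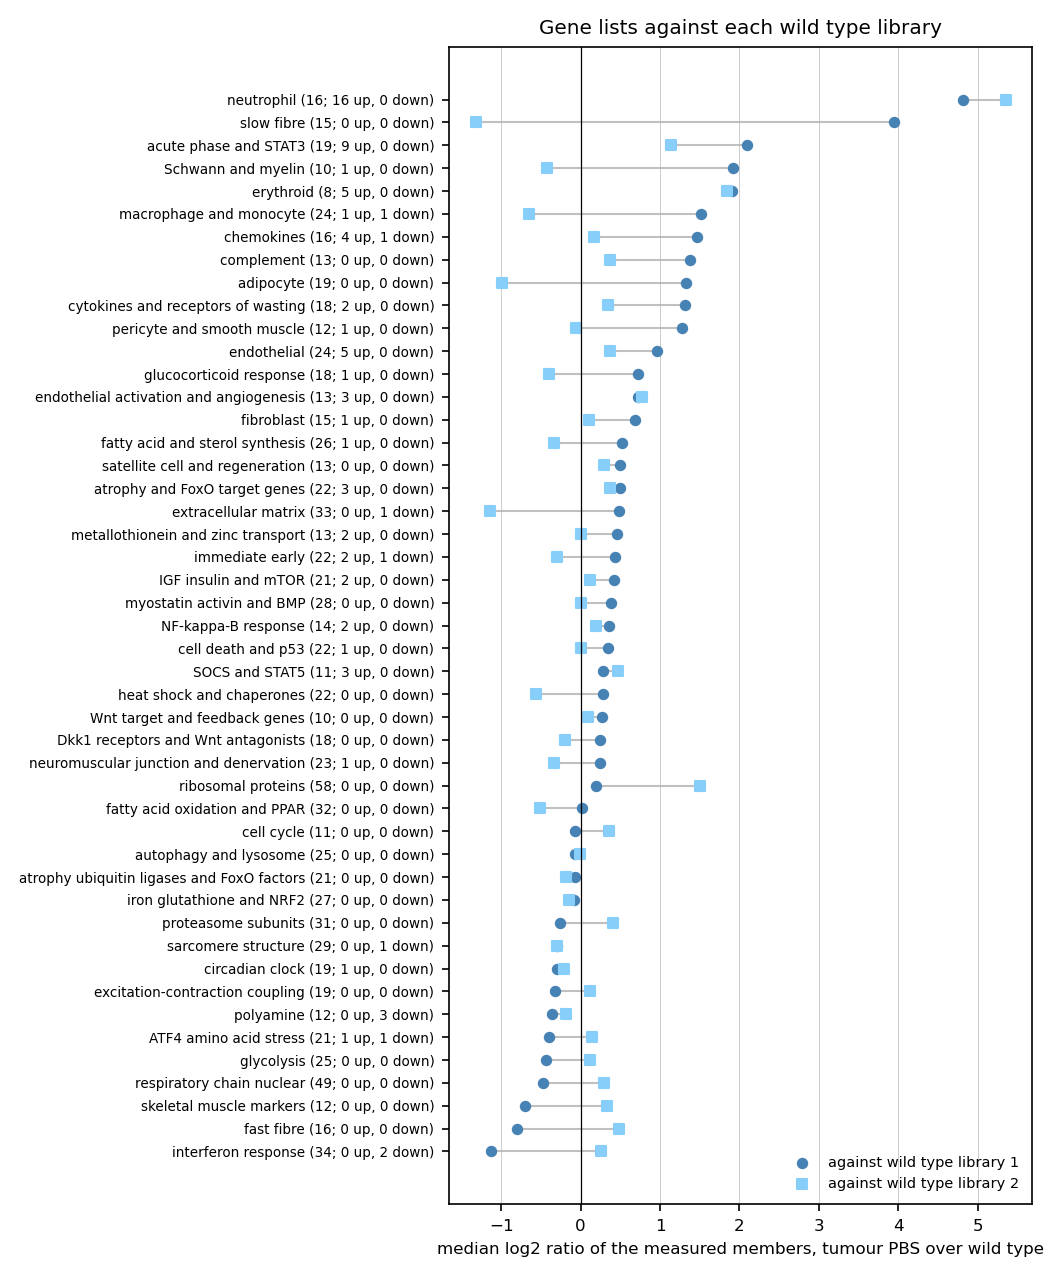
Median log2 ratio of tumour PBS over wild type library 1 (circles) and library 2 (squares) for each gene list with 8 or more measured members; the brackets give the measured members and how many were 2-fold higher (up) or lower (down) against both. Lists whose symbols lie on opposite sides of 0, such as slow fibre at 3.95 and -1.32, depend on the reference; the neutrophil members were measured mostly through the tumour library.

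Slow fibre genes show how far a result can rest on 1 reference. Against library 1, 13 of 15 slow fibre genes were higher by 2-fold or more while 12 were lower by as much against library 2, and all 15 lay between the references. Csrp3, a Z-disc protein, was at 17.8 CPM against 0.234 and 105 CPM, the slow troponin Tnni1 at 9.32 CPM against 0.0937 and 29.5 CPM, and the slow light chain Myl2 at 33.7 CPM against 1.08 and 49.2 CPM. Of the deposited RPKM of the 4 adult myosin heavy chains, which is a level per transcript length, fast Myh4 took 89.3% in tumour muscle against 96.5% and 68.5%, Myh1 8.76% against 3.24% and 24.1%, Myh2 1.84% against 0.214% and 6.99% and slow Myh7 0.0811% against 0.00296% and 0.336%. Which muscle each library came from is not given, so muscle and tumour status cannot be told apart in these genes.

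In all, 159 genes were 4-fold or more higher than in library 1 without holding against library 2 and 31 were 4-fold or more lower. The 10 largest on the higher side were Csrp3, Tnni1, Myl2, Myh6, Ankrd2, Tnnc1, Mhrt, AB124611, Cd300lb and Myoz2, mostly slow fibre and cardiac-type genes. The largest on the lower side included the interferon-induced GTPases Igtp, Iigp1 and Irgm2, with Igtp at 20.4 CPM against 503 and 17.4 CPM and Iigp1 at 24.5 CPM against 500 and 19.9 CPM. For these, library 1 was the 1 high library of the 7. Interferon response genes were at least 2-fold lower than in library 1 for 20 of 34 members but held against both for 2, Cxcl9 and Ifit3, the latter at 6.03 CPM against 19.2 and 12.4 CPM.

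Crip3, a cysteine-rich LIM protein gene, was the lowest of that side at 0.412 CPM against 12.4 and 0.567 CPM, and Ostn, the gene of the muscle hormone musclin, was at 6.09 CPM against 134 and 4.76 CPM. Others of the 10 were Pigr, Hsd3b4, Ugt3a2, Cyp2j5 and Serpina3g. Pigr was at 0.882 CPM against 9.0 and 0.131 CPM, and it was at 3702 CPM in wild type kidney, where Cyp2j5 reached 1693 CPM and Ugt3a2 1502 CPM. The 11 kidney epithelium genes summed to 25.8 CPM in tumour muscle, 94.4 CPM in library 1 and 7.68 CPM in library 2. Nphs1 had 0 counts in both wild type muscle libraries, and it was the only 1 of the 11 with 0 counts in either. The part of kidney RNA in the values of library 1 was not tested.

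**Figure D5:**
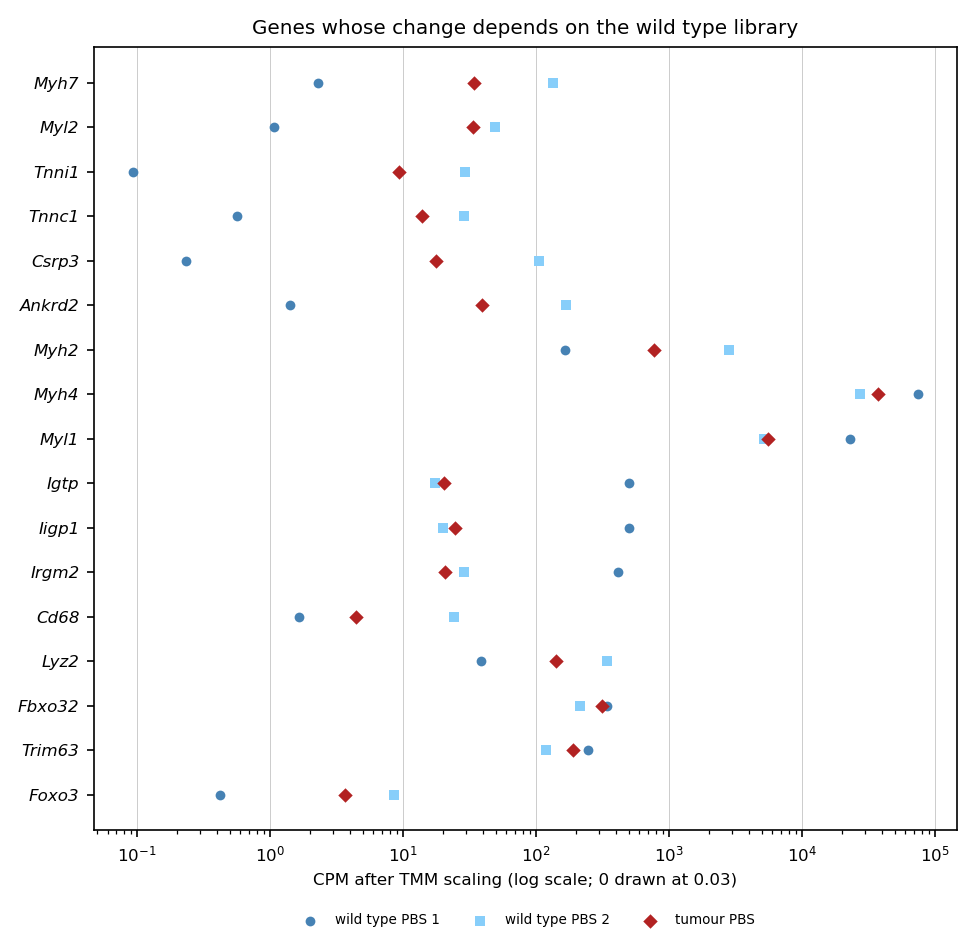
Levels in CPM (log axis) of 17 genes in tumour PBS muscle and in the 2 wild type PBS muscle libraries, 1 point per library and no replicate error. For slow fibre genes, Cd68, Lyz2, Fbxo32, Trim63 and Foxo3 the tumour library lies between the references, and Igtp, Iigp1 and Irgm2 are high in wild type library 1 alone.

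Tumour PBS kidney and wild type PBS kidney give values from another organ with no shared control. Of the 146 genes higher in muscle, 91 had 100 or more counts in a kidney library, and 32 of these (35.2%) were 2-fold or more higher in tumour kidney too, where 5.74% of 12878 genes were. They included S100a8, S100a9, Cxcl13, Lcn2, Bcl3, Mt1, Mt2, Cebpd, Osmr, Socs2, Socs3, Cp, the globins and Alas2. Mup2, Mup9, Mup10 and Mup16 were also among them. Copies of the globin and Mup genes share reads, so the 32 are not all separate measures. Some of the 32, such as S100a8, S100a9 and Cxcl13, reached 100 counts in kidney only because the tumour kidney library was high. The share of 35.2% is therefore a description and supports nothing further. In kidney S100a9 was at 8.86 CPM with the tumour and 0.567 CPM without it, Lcn2 at 77.3 against 2.74 CPM and Cebpd at 34.2 against 8.82 CPM. Cish, by contrast, was at 63.5 against 42.7 CPM in kidney and Plvap at 60.0 against 69.2 CPM, under 2-fold. Of 29 of the 46 lower genes measured in kidney, 1 was also lower there, where 4.05% of genes were: Cyp26b1, an enzyme that degrades retinoic acid.

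Tumour MDC muscle shares library 1 as its reference, so its values are set beside the others without a count of agreement. The held genes differed in how they compared with it. Cish was at 103 CPM in tumour PBS and 8.40 CPM in tumour MDC muscle, Lcn2 at 20.6 and 3.26 CPM, Mt2 at 134 and 32.4 CPM, and Cxcl13 at 30.2 and 2.28 CPM. Grrp1 was at 30.6 and 30.7 CPM, and Nnt, the mitochondrial transhydrogenase gene, at 143 and 175 CPM against 70.4 and 33.0 CPM in libraries 1 and 2. Both were chosen after their values were seen.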

How the data were processed

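Per gene, the authors deposited unnormalised read counts and the RPKM values they derived from them, and RPKM was used here for myosin shares alone. Reads were aligned with HISAT2 2.1.0 to mm10, per the submitters' processing notes. Not given in the sources used here are the counting program, the annotation and the strand setting. The tables hold no mitochondrially encoded genes.

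Counts were scaled with TMM (edgeR 4.0.16, R 4.3.3) over the 7 muscle libraries after filterByExpr with a minimum count of 10. Counts under 3 were raised to 3 for ratios. A gene held where it was 2-fold or more different from each wild type library in 1 direction, with 100 or more counts in the higher library of each pair. Genes with the same counts in every library were counted once (53 genes in 24 groups). The edgeR quasi-likelihood test had Benjamini-Hochberg adjustment, a threshold of 0.05 and 1 coefficient per group, with DESeq2 1.42.0 as an alternative, and the code was tested on simulated data. No difference between animals can be estimated from 1 tumour library, and p-values measure only the spread of the wild type pair.

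Named were the 20 largest held changes in each direction, leaving out microRNAs, small nucleolar RNAs, pseudogenes, RIKEN clones and Gm-numbered gene models, up to 4 genes in each direction from lists with 2 or more held members, a panel, the 10 genes in each direction 4-fold or more different from library 1 that did not hold, and up to 3 members of lists whose references disagree. Other genes were named after their values were seen. The members and lists were chosen with earlier results of these data known. Gene positions and promoters are from RefSeq on GRCm38.p6. Ratios have exact conditional binomial 95% intervals.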

Additional observations from a re-analysis of the deposited data

Results flagged for a closer look

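For 9 genes the change that held in muscle ran 2-fold or more the other way between tumour PBS and wild type PBS kidney, with 1 library per kidney group, and the difference between organs was not tested. Among genes higher in tumour muscle, Cd52, a leukocyte surface antigen, had a kidney log2 ratio of -1.39, the homeobox gene Meox1 -1.15, Ppp1r14a, an inhibitor of myosin phosphatase, -1.74 and Igfbp3 -1.23. Igfbp3 was at 49.8 against 117 CPM in kidney and at 61.2 against 28.2 and 21.0 CPM in muscle. Among genes lower in tumour muscle, Rmrp had a kidney log2 ratio of 4.95, Rpph1 4.13, Rn45s 2.12 and Lars2 1.35. The remaining gene was Spp1, the gene of the secreted phosphoprotein osteopontin, at 4.68: it was at 19459 against 760 CPM in kidney and at 8.82 against 22.3 and 135 CPM in muscle. Rmrp, Rpph1, Rn45s and Lars2 are the named genes left out together in the setting without ribosomal RNA genes. Rn45s took 0.728% of all counts in tumour PBS kidney and 0.167% in wild type PBS kidney. Whether the other 3 changed apart from that share was not tested.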

How the results depend on the processing

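The count of genes higher against both references was 146, and 140 to 189 under the other scalings, without the ribosomal RNA genes and with a prior count of 2. The count lower was 46, and 41 to 51 under these except for total counts alone, which gave 27. A minimum of 30 counts gave 282 higher and 110 lower, a minimum of 1000 counts 39 and 14, and counting intervals wholly past 2-fold 89 and 26. Asking for values beyond all 6 other muscle libraries, an alternative added after seeing the data, gave 116 and 23. Without either wild type library in turn the counts were 942 to 956 higher and 258 to 825 lower. The lower counts exceed the 204 and 604 found among the 10960 genes tested because only the pair in use then has to reach 100 counts. By construction, fewer genes are tested at a higher minimum and 1 reference asks less than both. Of 71 named genes, Sox18 did not hold under DESeq2 size factors, and Sox18, Smox and Spp1 did not hold under total counts. Of the same 71, Socs3, Cp, Cldn5, Sox18, Ccl8 and Ifit3 had a counting interval that reached 2-fold. None of the 71 reversed under any setting run. Genes named outside the 71 were not followed through these settings. Among them the interval also reached 2-fold for Igfbp3, Sln, Nnt, Arntl, Mup16, Ppp1r14a, Smtnl2, Fhl3, Foxo6 and Mthfd2.

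edgeR called 0 genes with TMM, with DESeq2 size factors and with no filter beyond 1 count in all, but 5 with the 3 libraries alone, and DESeq2 called 13. Leaving out a wild type library leaves no residual degree of freedom, so that test was not made. No paired analysis was possible because nothing in the labels ties 2 of these libraries to 1 mouse.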

Other observations

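Several held genes higher in tumour muscle belong to small groups of neighbours. Ifitm1, Ifitm2 and Ifitm6, interferon-inducible membrane proteins on chromosome 7 (140954837 to 141016892), were at 9.47, 120 and 9.79 CPM against 0.141, 38.0 and 0.375 CPM in library 1 and 0.698, 40.2 and 0.0873 CPM in library 2. Tmem176a and Tmem176b, paired membrane proteins on chromosome 6, were at 20.5 and 39.3 CPM against 5.30 and 12.0 CPM in library 1 and 5.76 and 14.2 CPM in library 2.

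Among metabolic and calcium genes, Elovl6, a fatty acid elongase, was at 13.8 CPM against 0.656 and 3.45 CPM. Chac1, which degrades glutathione, was at 94.1 CPM against 38.3 and 17.5 CPM, but at 120 CPM in the beta-arrestin knockout PBS library. Sln, the sarcolipin gene, whose product slows the calcium pump, had 326 counts against 0 and 101. It was at 33.5 CPM in tumour MDC muscle and 9.59 CPM in tumour PBS muscle, but also at 19.1 CPM in the beta-arrestin knockout DKK1 library. Arntl, a clock transcription factor, was at 4.85 CPM against 2.25 and 2.40 CPM, the 1 of 19 clock genes measured that held. Among the lower genes, Itpr1, a calcium release channel, was at 15.9 CPM against 37.3 and 39.1 CPM and Mthfd2, a mitochondrial folate enzyme, at 3.56 CPM against 8.20 and 8.86 CPM. These genes were chosen after their values were seen.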
